A study of Mus musculus with 15 samples.

Results

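The genes described are Lrp2, Cubn, Amn, Dab2 and Clcn5, which encode the core of the protein uptake machinery of the kidney proximal tubule. They were found by matching the Ensembl identifiers of the deposited gene table to symbols with GENCODE M21 (build GRCm38), and make up 5 of the 54532 genes in the table. All 5 had a value above 0 in at least 5 of the 10 libraries of each comparison, so each of them was tested in every comparison. The samples were kidneys of 15 male C57BL/6 mice that entered the study at 8 weeks of age, 5 per group, and each was sequenced once. The control group (C) ate normal chow. The CKD model group (M) ate chow with 0.25% adenine for 4 weeks and standard chow afterwards. The AA group ate the same adenine chow and also received asiatic acid, a triterpene of Centella asiatica, by daily gavage at 30 mg/kg. Mice of the C and M groups were gavaged with the vehicle, dilute DMSO in saline, and all mice were killed after 8 weeks. Asiatic acid was given from the start of the adenine diet and continued to the end. No genetic change was made in any group.

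Megalin, the product of Lrp2, is a giant member of the LDL receptor family on the brush border, where it binds filtered vitamin carriers, hormones and small proteins. Cubilin, the product of Cubn, has no membrane anchor of its own and reaches the apical membrane only in complex with amnionless, the product of Amn; together they bind albumin, transferrin, apolipoprotein A-I and the intrinsic factor complex of vitamin B12. Dab2 is the cytoplasmic adaptor that links the tail of megalin to clathrin. Clcn5 encodes ClC-5, a chloride/proton exchanger of early endosomes whose loss causes Dent disease, with low molecular weight proteinuria. Dab2 is also made by macrophages and endothelial cells, and ClC-5 also by intercalated cells and the thick ascending limb, whereas megalin, cubilin and amnionless in the kidney belong mainly to the proximal tubule.

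Lrp2 (ENSMUSG00000027070) lies on the reverse strand of chromosome 2 from 69424340 to 69586065, with 16701 bases of joined exons. Cubn (ENSMUSG00000026726) lies on the same strand of chromosome 2 from 13276338 to 13491813, with 14935 exon bases. Amn (ENSMUSG00000021278) is a short gene on the forward strand of chromosome 12 from 111271095 to 111276426, with 1843 exon bases. Dab2 (ENSMUSG00000022150) spans 6299788 to 6440712 on the forward strand of chromosome 15, with 7342 exon bases. Clcn5 (ENSMUSG00000004317) spans 7153810 to 7319358 on the reverse strand of chromosome X, with 11452 exon bases. Of the 31-base words in their transcripts, 2.11% of those of Cubn recurred in Gm13270, a noncoding gene on the opposite strand that overlaps it, and 2.42% of those of Dab2 recurred in Gm18888, a pseudogene inside its interval. The share was 0 for Amn and at most 0.0480% for Lrp2 and Clcn5. The library preparation is not described as marking the strand, and without it reads of Cubn and Gm13270, and of Dab2 and its antisense gene Gm16311, cannot be told apart where both have exons.

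Lrp2, Cubn and Amn are the 3 genes whose M libraries all lay below the C libraries, and the bases just before their RefSeq transcription starts (GRCm38.p6) are shown for that reason. Each is written from 5′ to 3′ on the strand of its gene and is limited to upstream bases that lie in no GENCODE M21 exon. The positions are chr2:69586066-69586279 on the reverse strand for Lrp2, chr2:13491877-13492126 on the reverse strand for Cubn and chr12:111270846-111271094 on the forward strand for Amn. Capitals mark the letters of a searched motif.
Lrp2: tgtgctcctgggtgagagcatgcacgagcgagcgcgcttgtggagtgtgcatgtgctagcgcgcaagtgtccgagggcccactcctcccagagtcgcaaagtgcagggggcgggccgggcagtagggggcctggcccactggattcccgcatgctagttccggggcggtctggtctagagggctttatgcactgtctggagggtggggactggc
Cubn: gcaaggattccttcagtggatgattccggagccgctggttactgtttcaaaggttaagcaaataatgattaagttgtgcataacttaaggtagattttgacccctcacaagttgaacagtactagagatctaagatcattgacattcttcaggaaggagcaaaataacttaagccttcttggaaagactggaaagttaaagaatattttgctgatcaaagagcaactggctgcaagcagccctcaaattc
Amn: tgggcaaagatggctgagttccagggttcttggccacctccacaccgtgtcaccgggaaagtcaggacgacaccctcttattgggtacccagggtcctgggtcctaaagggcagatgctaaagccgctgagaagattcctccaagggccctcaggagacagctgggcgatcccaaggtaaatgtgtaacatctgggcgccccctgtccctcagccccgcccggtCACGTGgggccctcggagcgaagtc
Motifs were searched on both strands. They were AGGTCA, a half-site of nuclear receptors, CACGTG, an E-box, and TATAAA, the TATA box, and no match overlapped another. A match was found in 1 of the 3 windows, the E-box of Amn, which begins 26 bases before the start. Over 32851 promoter windows of 250 bases, CACGTG was found in 6.02%, AGGTCA in 14.0% and TATAAA in 12.4%. In windows cut to 214 bases, the length shown for Lrp2, the shares in the same order were 4.80%, 12.3% and 9.71%. Of the windows not printed, both of Dab2 and the first of Clcn5 held none of these motifs, and the second of Clcn5 held TATAAA. The bases at the starts of Lrp2 and Amn are rich in G and C, at 65.9% and 61%, and those of Cubn are not, at 39.6%.

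The deposited values are FPKM, a read number divided by the length of the gene and by a number that stands for the size of the library. The reads on genes recovered from the steps between values numbered 13649479 to 28885810 per library. Mitochondrial genes held 53.0 to 62.5% of them across C kidneys, 64.0 to 86.8% across M kidneys and 69.2 to 87.2% across AA kidneys. M mice 1 to 3 stood apart, with 10068 to 12222 genes above 0 against 18695 to 25460 in the other 12 libraries, and with 593 to 744 genes at 1 to 8 reads against 1826 to 5056. The 20 proximal tubule markers, among them Slc34a1 and Slc5a2, were all above 0 in every C library, while M mice 1 to 3 listed 1 to 7 of them at 0. Values against M mice 4 and 5 alone are therefore given beside the pooled ones. Fold changes and adjusted p-values are from limma on log2(FPKM + 1), with Benjamini-Hochberg adjustment over all genes tested, and a gene was called at an adjusted p of at most 0.05 and an absolute log2 fold change of at least 1.

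Megalin and amnionless RNA were called lower across M kidneys than across C kidneys, in calls that many other settings ended, and Cubn, Dab2 and Clcn5 did not pass the test. Mean FPKM across M kidneys was 12.1% of that across C kidneys for Lrp2, 16.6% for Cubn and 11.2% for Amn, but 85.3% for Dab2 and 64.5% for Clcn5. C mouse 2 held up the control means, and without it the shares were 20.2% for Lrp2, 26.3% for Cubn and 14.8% for Amn. The 2 genes called, of 5, stood in a comparison that called 1.38% of 21153 genes, 57 higher and 234 lower. Rescaling to TPM, which sets each library to the same total, moved the median of all genes from −0.12 to −0.49 and the calls to 30 higher among 1586. For 3 of the 5, Lrp2, Cubn and Amn, every M library was below every C library, and 4.72% of all genes tested had groups that did not overlap in either direction. With M mice 4 and 5 as the whole M group limma called 0 of the 5, and 2, Lrp2 and Amn, had an unadjusted p under 0.05. Both calls were also lost with a pseudocount of 0.1 or 0.01, no filter on low values, quality weights or no intensity trend. Over 27 alternatives that of Lrp2 was lost in 17 and that of Amn in 12. In whole kidney RNA, fewer proximal tubule cells and less RNA per cell cannot be told apart.

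**Figure D1:**
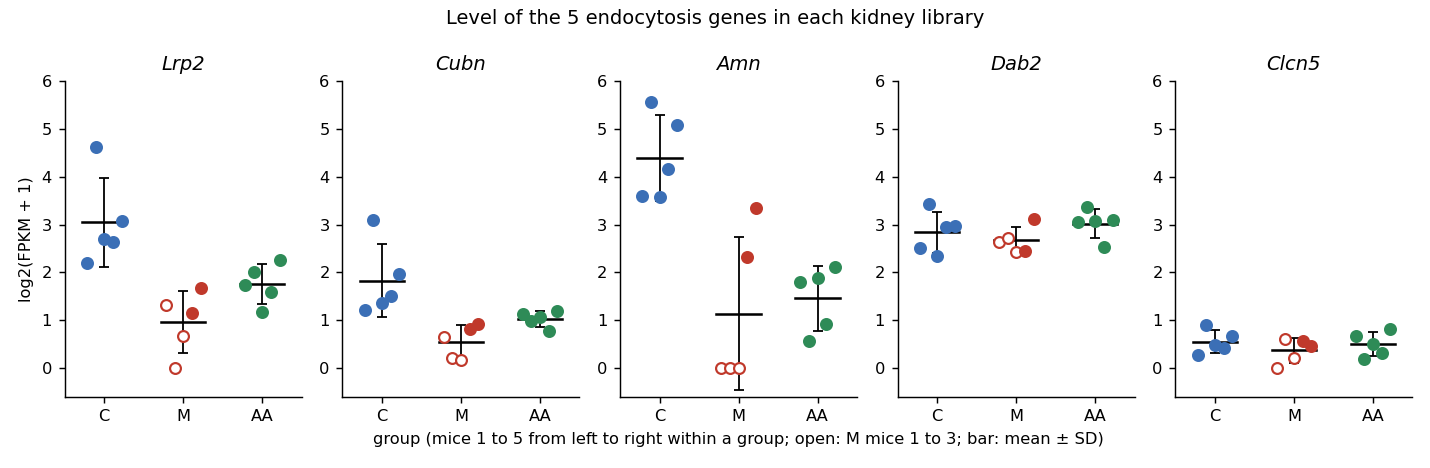
Level of each gene, as log2(FPKM + 1), in the 15 kidney libraries, with 1 panel per gene, 1 column of points per group (mice 1 to 5 from left to right), open points for M mice 1 to 3 and bars for the mean ± SD of 5 libraries. The M points of Lrp2, Cubn and Amn lie below all C points, while the 3 groups of Dab2 and of Clcn5 overlap.

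For Lrp2, the megalin gene, FPKM was 3.61, 23.6, 5.48, 5.25 and 7.36 for C mice 1 to 5. In M mice 1 to 5 it was 1.49, 0, 0.582, 1.24 and 2.19. AA mice 1 to 5 had 2.35, 3.01, 1.24, 2.02 and 3.79. C mouse 2 stood far above the other control kidneys, all M values lay below the lowest C value, and of the AA values 2 lay among the M values, 2 between the M and C groups and 1, AA mouse 5, slightly above C mouse 1. The log2 fold change M vs. C was −2.08 (SE, the standard error, 0.46, 95% confidence interval −3.07 to −1.09, limma adjusted p = 0.0440). The call was narrow: leaving out any 1 of 8 libraries (C mice 2 to 5 or M mice 1 to 4) moved the limma adjusted p to between 0.0593 and 0.129, with log2 fold changes of −2.18 to −1.69. Against M mice 4 and 5 alone the log2 fold change was −1.63 (95% confidence interval −2.92 to −0.34, limma adjusted p = 0.287). These values rested on 1937 to 15836 reads across C kidneys, 0 to 1139 across M kidneys and 312 to 1020 across AA kidneys. The 0 of M mouse 2 corresponds to an upper limit of 0.0172 FPKM at 3 reads, a limit that covers counting error only, since reads without molecular identifiers are not independent molecules.

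Cubn, which encodes cubilin, was below Lrp2 in FPKM in every library but that of M mouse 2. Its FPKM was 1.31, 7.55, 1.56, 1.85 and 2.93 for C mice 1 to 5 and 0.565, 0.154, 0.123, 0.772 and 0.903 for M mice 1 to 5. In the AA group it was 1.18, 0.965, 1.11, 0.709 and 1.30. M mice 2 and 3 were lowest, C mouse 2 was again highest, and neither the M nor the AA group reached the lowest control. The log2 fold change M vs. C was −1.27 (SE 0.37, 95% confidence interval −2.08 to −0.47), and Cubn was not called (limma adjusted p = 0.115). A two-sided exact permutation test of the same difference gave p = 0.00794, the smallest that regrouping 5 against 5 can give, unadjusted for the 15 such tests made. At a pseudocount of 1, genes near 1 FPKM move less on the log2 scale than their FPKM, and with a pseudocount of 0.1 the log2 fold change of Cubn was −2.33 (limma adjusted p = 0.106).

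With all M libraries, Amn had the largest fall of the 5 in M vs. C. FPKM was 11.1, 46.2, 10.9, 17.0 and 32.6 for C mice 1 to 5, and 0, 0, 0, 4.00 and 9.23 for M mice 1 to 5. In AA mice 1 to 5 it was 2.47, 0.481, 2.71, 0.896 and 3.30. All M and all AA values lay below the lowest control, and the M values split into 3 libraries at 0 and 2 that exceeded every AA library. The log2 fold change M vs. C was −3.26 (SE 0.68, 95% confidence interval −4.73 to −1.78, limma adjusted p = 0.0373). With only M mice 4 and 5 it was −1.56 (95% confidence interval −2.88 to −0.23, limma adjusted p = 0.324), no larger than the fall of Lrp2 there, at −1.63. The call was lost without any 1 of C mice 2, 4 and 5 or M mice 1 to 3, with limma adjusted p of 0.0742 to 0.121. Upper limits at 3 reads for M mice 1, 2 and 3 were 0.140, 0.156 and 0.120 FPKM, again for counting error only. Amn is a short gene, and 8 to 98 reads stood behind its AA values, against 655 to 3425 across C kidneys.

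Dab2, the clathrin adaptor, did not separate the groups. Its FPKM was 4.70, 9.74, 4.04, 6.72 and 6.87 for C mice 1 to 5, 5.22, 5.62, 4.36, 4.44 and 7.70 for M mice 1 to 5, and 7.26, 9.29, 7.38, 4.76 and 7.54 for AA mice 1 to 5. The 3 groups covered nearly the same range, and M mice 1 to 3 did not stand apart. The log2 fold change M vs. C was −0.17 (SE 0.29, 95% confidence interval −0.79 to 0.46, limma adjusted p = 0.782), an interval that leaves out a fall as large as that of Lrp2 or Amn. Its sign turned to 0.087 with quantile normalization and to 0.19 with libraries centred on their medians, and with TPM it was −1.04 (limma adjusted p = 0.112). Dab2 was read 431 times or more in every library.

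Clcn5, the endosomal exchanger gene, had the lowest mean FPKM of the 5 in each group. Its FPKM was 0.207, 0.862, 0.397, 0.346 and 0.590 for C mice 1 to 5, 0, 0.535, 0.154, 0.482 and 0.378 for M mice 1 to 5, and 0.603, 0.145, 0.413, 0.238 and 0.765 for AA mice 1 to 5. The groups overlapped almost fully. The log2 fold change M vs. C was −0.18 (SE 0.18, 95% confidence interval −0.57 to 0.21, limma adjusted p = 0.635), and it turned to 0.083 with quantile normalization and 0.18 with centring on library medians. At 15 to 397 reads in the libraries where it was above 0, and with values under 1 FPKM compressed by the pseudocount, the data limit what could be detected for Clcn5. With a pseudocount of 0.1 the log2 fold change was −0.67 (limma adjusted p = 0.598).

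The AA vs. M comparison asked whether treated kidneys differed from untreated diseased ones. All 5 differences on log2(FPKM + 1) were above 0, although the mean FPKM of Amn was lower across AA kidneys than across M kidneys, at 1.97 and 2.65. Here limma called 0 of the 5 genes, against 12.8% of 19798 genes tested. Of the 5, 1 had an unadjusted limma p under 0.05, Lrp2 at 0.0439, and limma voom on the recovered reads also called 0. In two-sided exact permutation tests, unadjusted for the 15 made, Cubn had p = 0.0317 and Lrp2 p = 0.0556. None of the 5 had groups that did not overlap, against 13.2% of all genes. The median log2 fold change of all genes tested was 0.17.

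Lrp2 averaged 2.48 ± 0.97 FPKM (SD, n = 5) across AA kidneys and 1.10 ± 0.84 (SD, n = 5) across M kidneys, a log2 fold change of 0.79 (95% confidence interval 0.03 to 1.56, limma adjusted p = 0.143). Cubn averaged 1.05 ± 0.23 and 0.503 ± 0.35 (SD, n = 5 each), a log2 fold change of 0.48 (95% confidence interval −0.05 to 1.00, limma adjusted p = 0.201). Dab2 and Clcn5 had log2 fold changes of 0.35 (limma adjusted p = 0.440) and 0.13 (limma adjusted p = 0.669). Against M mice 4 and 5 alone the values were 0.34 for Lrp2, 0.15 for Cubn, 0.24 for Dab2 and −0.01 for Clcn5, with limma adjusted p of 0.572, 0.734, 0.677 and 0.973. Centring each library on its median moved the median of all genes from 0.17 to −0.35 and turned the sign of Cubn to −0.04, of Amn to −0.19, of Dab2 to −0.17 and of Clcn5 to −0.39, while Lrp2 stayed at 0.28. Quantile normalization also turned Cubn, to −0.017, and Clcn5, to −0.22.

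The direction for Amn depended on which M libraries were used. With all 5 the log2 fold change AA vs. M was 0.32 (95% confidence interval −1.04 to 1.68, limma adjusted p = 0.771). Against M mice 1 to 3 alone, all at 0, it was 1.46 (limma adjusted p = 0.0194). Against M mice 4 and 5 alone it was −1.38 (limma adjusted p = 0.103), and all 5 AA values lay below both of theirs.

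**Figure D2:**
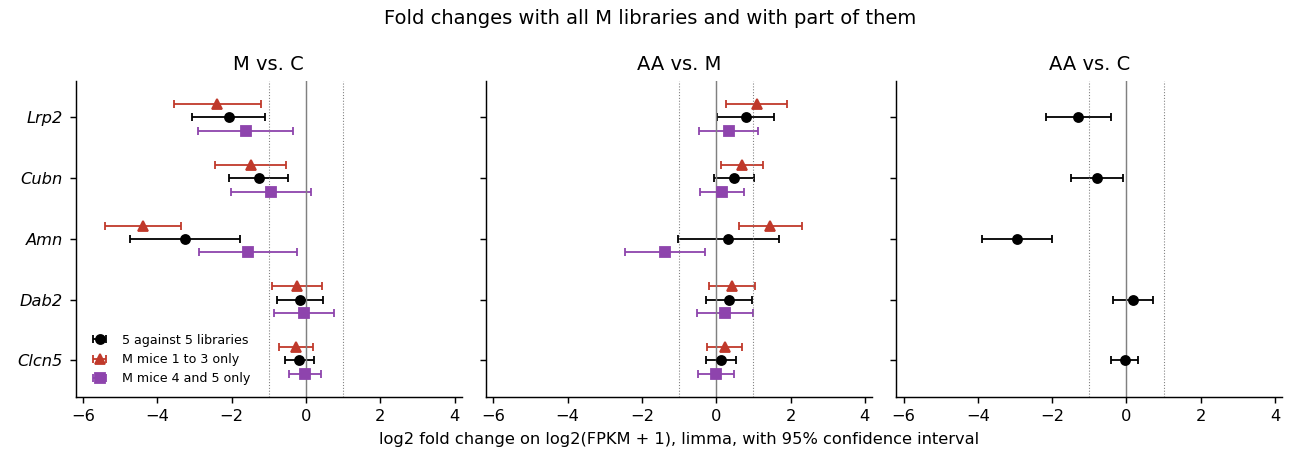
Log2 fold change of each gene on log2(FPKM + 1) with its 95% confidence interval from limma, in the 3 comparisons, with all libraries (circles), with M mice 1 to 3 only (triangles) or with M mice 4 and 5 only (squares). Dotted lines mark −1 and 1. The Amn estimates for AA vs. M fall on opposite sides of 0, at 1.46 and −1.38, for the 2 parts of the M group.

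In AA vs. C, which shares its control libraries with M vs. C, limma called Lrp2 and Amn lower, 2 of 5 genes against 19.8% of 21898 genes tested. For Cubn and Amn every AA library was below every C library, and 24.0% of all genes tested had groups that did not overlap. Mean FPKM of the AA group was 27.4% of the control mean for Lrp2, 34.6% for Cubn, 8.37% for Amn, 113% for Dab2 and 90.1% for Clcn5. Without C mouse 2 it was 45.8% for Lrp2, 55.0% for Cubn and 11.02% for Amn. Amn had a log2 fold change of −2.94 (SE 0.43, limma adjusted p = 0.000712) and remained called without any 1 library. Lrp2 had a log2 fold change of −1.29 (SE 0.40, limma adjusted p = 0.0258). That call was lost without AA mouse 3, AA mouse 4 or C mouse 5, at limma adjusted p of 0.0507 to 0.0560, and without C mouse 2, where the log2 fold change was −0.90. Cubn was at −0.80 (SE 0.32, limma adjusted p = 0.0717), with AA mouse 5 at 1.30 and C mouse 1 at 1.31 FPKM as the nearest values. Dab2 was at 0.18 (95% confidence interval −0.37 to 0.73, limma adjusted p = 0.593), which turned to −0.80 with TPM (limma adjusted p = 0.0361), and Clcn5 at −0.05 (95% confidence interval −0.41 to 0.31, limma adjusted p = 0.834).

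By mean FPKM, which is per length, the groups were ordered C, AA, M for Lrp2 and Cubn, C, M, AA for Amn, AA, C, M for Dab2 and C, AA, M for Clcn5. Of neighbouring groups in these orders, only AA and C for Lrp2 and M and C for Amn differed past the threshold. The order of the genes within a library, which no scaling of the library can change, also shifted. Amn was above Dab2 in 5 of 5 C libraries, 1 of 5 M libraries and 0 of 5 AA libraries. Lrp2 was above Dab2 in 3 of 5 C libraries and in 0 of 5 of either adenine group. Cubn stayed below Dab2 in all 15 libraries and Lrp2 stayed above Cubn in all but M mouse 2. Of the summed FPKM of the 5 genes, Amn held 54.7% ± 6.00 across C kidneys, 16.4% ± 22.6 across M kidneys and 14.5% ± 7.43 across AA kidneys (SD, n = 5 each). Dab2 held 17.4% ± 4.95, 64.6% ± 24.0 and 55.4% ± 7.90 in the same groups, with a highest control share of 22.5% and lowest shares of 37.8% in M and 45.1% in AA.

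Log2 ratios of (FPKM + 1) between pairs of genes in the same library were compared with two-sided exact permutation tests, 12 in all and not adjusted, for which 0.00794 is the smallest p possible. Dab2/Lrp2, the adaptor against its receptor, was −0.21 ± 0.62 across C kidneys, 1.71 ± 0.60 across M kidneys and 1.27 ± 0.42 across AA kidneys (SD, n = 5 each). The groups did not overlap for M vs. C or AA vs. C (exact p = 0.00794 in both), also with a pseudocount of 0.1. AA and M overlapped, with a difference of −0.44 (exact p = 0.254). Clcn5/Lrp2 rose by 1.91 in M vs. C and by 1.24 in AA vs. C (exact p = 0.00794 in both) and its groups did not overlap there either, with Clcn5 itself below the pseudocount in every library. Both ratios largely restate the change of Lrp2, at −2.08 in M vs. C beside −0.17 for Dab2 and −0.18 for Clcn5.

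Amn/Cubn, the anchor against the receptor it carries, was 2.56 ± 0.34 across C kidneys, 0.58 ± 1.32 across M kidneys and 0.43 ± 0.55 across AA kidneys (SD, n = 5 each). Its difference was −1.98 in M vs. C (exact p = 0.0238) and −2.14 in AA vs. C (exact p = 0.00794), where the groups did not overlap. M mice 4 and 5 had ratios of 1.496 and 2.43, above every AA library, whose highest was 0.90, and without M mice 1 to 3 the M vs. C difference was −0.60 (exact p = 0.286). With 2 M libraries no exact p under 0.0952 is possible, so none of the ratios could pass there. Cubn/Lrp2 was higher by 0.81 in M vs. C (exact p = 0.00794) and by 0.49 in AA vs. C (exact p = 0.0317), but with a pseudocount of 0.1 neither difference passed (exact p = 0.0714 and p = 0.175). The 4 ratios did not differ detectably between AA and M, with exact p of 0.127 to 0.817.

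**Figure D3:**
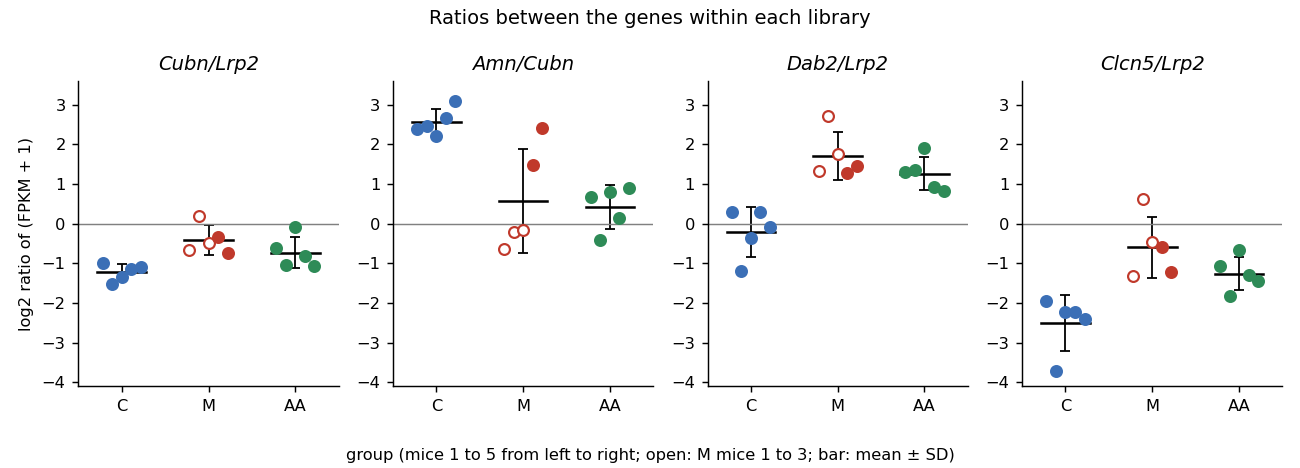
Log2 ratio of (FPKM + 1) for 4 pairs of genes in each library, by group (mice 1 to 5 from left to right, open points for M mice 1 to 3, bars for the mean ± SD of 5 libraries). Dab2/Lrp2 and Clcn5/Lrp2 are higher in every M and AA library than in any C library, and Amn/Cubn of M mice 4 and 5 lies apart from M mice 1 to 3.

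Proximal tubule markers, none of them among the 5 genes, were lower in the same libraries. Of 20 markers 12 were called lower and 0 higher in M vs. C, with a median log2 fold change of −2.74 against −0.12 over all genes tested, and 19 had an unadjusted limma p under 0.05. Against M mice 4 and 5 alone limma called 0, the median was −1.995 and all 20 were negative. Slc34a1, the sodium phosphate cotransporter, went from 312 ± 347 to 6.06 ± 7.49 FPKM (SD, n = 5 each). Kap, an androgen-regulated protein of the proximal tubule, went from 5622 ± 3191 to 267 ± 162, and Slc27a2, a fatty acid transport protein, from 334 ± 242 to 30.8 ± 37.4 (SD, n = 5 each). In AA vs. C 13 of the 20 were called lower, with a median of −1.98, and in AA vs. M 2 were called higher, Acsm2 and Slc3a1, with a median of 0.57. Against M mice 4 and 5 alone 2 were higher across AA kidneys and 3 lower, Slc27a2 (−2.71), Ggt1 (−2.12) and Slc34a1 (−1.69), whereas the fit with M mice 1 to 3 called 7 higher and 0 lower, with Slc27a2 and Slc34a1 both at 1.42. The mean log2(FPKM + 1) over the list was 4.06 to 6.05 across C kidneys, 1.36 to 2.28 in M mice 1 to 3, 2.74 to 2.80 in M mice 4 and 5 and 2.39 to 3.11 across AA kidneys.

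When each library was expressed relative to that marker mean, the 5 genes took different values. The same limma fit then called 97.1% of all genes in M vs. C, with a median log2 fold change of 2.51. On this scale Dab2 (2.47) and Clcn5 (2.46) stood at the median of all genes, with limma adjusted p of 1.38e-05 and 4.58e-06. Cubn was at 1.36 (limma adjusted p = 0.0109). The mean log2(FPKM + 1) across C kidneys was 0.55 for Clcn5 and 1.83 for Cubn. The marker mean went from 4.88 in C to 2.24 in M and 2.81 in AA. Clcn5 and Cubn would therefore be positive against C even if undetected in every M or AA library. Their signs and small p-values in M vs. C and AA vs. C thus do not separate them from the markers. Lrp2 was at 0.56 (95% confidence interval −0.50 to 1.61, limma adjusted p = 0.304) and Amn at −0.62 (95% confidence interval −1.70 to 0.46, limma adjusted p = 0.264). Neither differed detectably from the marker mean, and Amn turned to 0.55 with M mice 4 and 5 alone. The mean log2(FPKM + 1) of Lrp2 across C kidneys was 3.05. Undetected in every M library, Lrp2 would fall only slightly more than the markers, so this fit could hardly place it below them. The same limit applies, less tightly, in AA vs. C. In AA vs. C, where 91.1% of genes were called and the median was 2.16, the values were 2.25 for Dab2, 2.02 for Clcn5, 1.27 for Cubn (limma adjusted p = 0.00797), 0.77 for Lrp2 (limma adjusted p = 0.0963) and −0.87 for Amn (limma adjusted p = 0.0590). In AA vs. M limma called 11.8% of genes and 0 of the 5, none of which had an unadjusted p under 0.05, with values from −0.44 for Clcn5 to 0.22 for Lrp2.

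**Figure D4:**
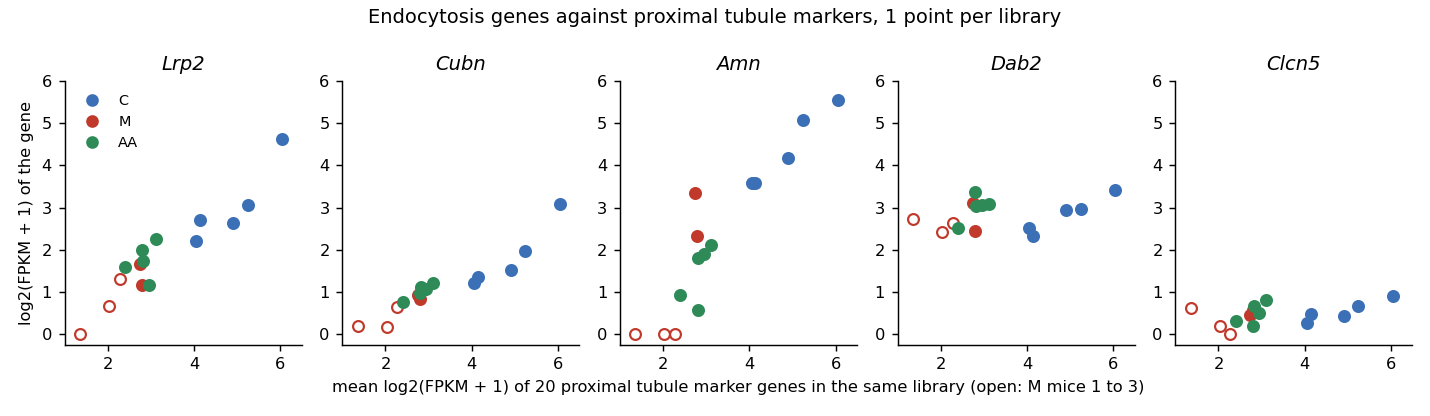
Log2(FPKM + 1) of each gene against the mean log2(FPKM + 1) of 20 proximal tubule markers in the same library, with 1 point per library (blue C, red M, green AA, open for M mice 1 to 3). Lrp2, Cubn and Amn climb with the markers from M mice 1 to 3 at 1.36 to 2.28 to the C group at 4.06 to 6.05. The groups overlap for Dab2 and Clcn5, but among C libraries both are highest in C mouse 2 (3.43 and 0.90), where the marker mean is highest. Values under 1 FPKM, as for Clcn5, are compressed by the pseudocount.

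Genes with the most similar pattern were sought by Pearson r of log2(FPKM + 1) over the 15 libraries among 9036 protein-coding genes with a mean of at least 1 FPKM. The r values mix differences between groups with those within them, share the depth of each library, and are given as a description. For Lrp2 they were Ces1f (r = 0.978), Cyp4b1 (0.974) and Cubn (0.957). For Cubn they were Acsm2 (0.969), itself on the marker list, Slc6a20b (0.968) and Cyp4b1 (0.960), with Lrp2 next among the 5 genes. Those nearest to Amn were Pde9a (0.990), Ush1c (0.982), which encodes a scaffold of the brush border, and Prss8 (0.981), an epithelial serine protease, while Lrp2 had 0.838 and Cubn 0.865. Pde9a, Ush1c and Prss8 were, like Amn, lower on average across AA kidneys than across M kidneys, at 1.05 and 1.29 FPKM, 1.45 and 2.10 FPKM, and 1.76 and 2.17 FPKM. They were chosen for their likeness to Amn in these same libraries, so the shared order is no separate evidence. Values were lower for Dab2, with Cyp24a1 (0.855) and Dpp4 (0.813), and for Clcn5, with Mtmr11 (0.833), Cnnm3 (0.828) and Gnpda1 (0.824). Lrp2 had r of 0.453 with Dab2 and 0.435 with Clcn5.

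The rest of the endocytic route was described with 7 lists, beside the median of all genes tested of −0.12 in M vs. C. Of 24 genes for the receptor chaperone, adaptors and clathrin coat, 0 were called higher and 2 lower in M vs. C, with a median log2 fold change of −0.41. Both are apical proteins: Slc9a3, the sodium/proton exchanger NHE3, went from 8.30 ± 6.40 to 0.972 ± 1.51 FPKM (log2 fold change −2.28, limma adjusted p = 0.0440), and Pdzk1, a scaffold of apical transporters, from 6.07 ± 3.40 to 0.663 ± 0.908 (log2 fold change −2.11, limma adjusted p = 0.0363; SD, n = 5 each). Of 25 endosome and recycling genes limma called 0 and gave 2 an unadjusted p under 0.05, with a median of −0.15. Rab7 of late endosomes and Rab5c of early endosomes had means of 23.2 and 17.6 FPKM across M kidneys and 23.5 and 16.0 across C kidneys. Among 20 genes of endosome and lysosome acidification limma called 0 and gave 4 an unadjusted p under 0.05, with a median of −0.35. The proton pump subunits Atp6v1f and Atp6v1g1 had log2 fold changes of −0.45 (limma adjusted p = 0.536) and −0.55 (limma adjusted p = 0.350). Of 12 lysosomal genes limma called 0 and gave 3 an unadjusted p under 0.05, with a median of −0.20, and Lamp1 and Lamp2, the main lysosomal membrane proteins, were at 0.56 (limma adjusted p = 0.515) and 0.90 (limma adjusted p = 0.269). None of the genes in the first 4 lists was called in M vs. C with M mice 4 and 5 alone, where Slc9a3 was at −1.37 and Pdzk1 at −1.27 and 0.0662% of all genes were called. With M mice 1 to 3 alone, where 14.6% of all genes were called, 1 adaptor gene was called higher and 7 lower, 2 and 1 of the endosome genes, 1 and 3 of the acidification genes and 3 and 4 of the lysosomal genes. In AA vs. M, which has its M libraries in common with M vs. C, limma called 0 of the endosome, acidification and lysosomal genes and gave 3, 0 and 1 of them an unadjusted p under 0.05. Their medians were 0.014, 0.02 and 0.059, beside 0.17 over all genes tested.

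Of 19 LDL receptor family members and other uptake receptors, 1 was called lower in M vs. C and 0 higher, with a median of −0.32. It was Folr1, the folate receptor, which went from 17.2 ± 8.34 to 2.65 ± 2.61 FPKM (SD, n = 5 each; log2 fold change −2.59, limma adjusted p = 0.0393; −1.53 when the M group was mice 4 and 5). In AA vs. M Folr1 was called higher (log2 fold change 1.73, limma adjusted p = 0.0355), as was Lrp1, the broad scavenger relative of megalin, at 23.5 ± 5.67 against 9.81 ± 9.03 FPKM (SD, n = 5 each; log2 fold change 1.43, limma adjusted p = 0.0298). The 2 calls, of 19 genes, stood in a comparison that called 12.8% of all genes tested. Neither call held against M mice 4 and 5 alone, at 0.67 for Folr1 (limma adjusted p = 0.296) and 0.82 for Lrp1 (limma adjusted p = 0.305). Of 18 ligand and carrier genes tested limma called 0 in M vs. C and gave 7 an unadjusted p under 0.05, with a median of −0.10, and 2 of 16 were called higher in AA vs. M. These were Apom, apolipoprotein M (log2 fold change 1.56, limma adjusted p = 0.00978), and Hpx, the heme carrier hemopexin (1.76, limma adjusted p = 0.0133), which were at 0.86 and 0.89 against M mice 4 and 5 alone. Pdzk1 was the 1 gene of the adaptor list called in AA vs. M, higher by 1.27 (limma adjusted p = 0.0328) but by 0.42 without M mice 1 to 3 (limma adjusted p = 0.434).

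Genes listed as transcription factors of the proximal tubule were all negative in M vs. C, 8 of 8 tested, with a median of −0.61. Here limma called 0 and gave 5 an unadjusted p under 0.05. In AA vs. M, where 12.8% of all genes were called, 3 of 7 tested were called higher and 0 lower. Hnf4a, a master regulator of the proximal tubule, averaged 14.6 ± 3.70 FPKM across AA kidneys, 4.55 ± 3.83 across M kidneys and 19.7 ± 10.2 across C kidneys (SD, n = 5 each), a log2 fold change AA vs. M of 1.79 (limma adjusted p = 0.0195) that was 0.69 against M mice 4 and 5 alone (limma adjusted p = 0.199). Foxc1 and Hnf4g were the others, at 1.45 (limma adjusted p = 0.02004) and 1.27 (limma adjusted p = 0.0147), and 0.68 and 1.13 without M mice 1 to 3. The cell source of Foxc1 RNA was not tested, so its call is not a measure of the proximal tubule. Lrp2, Cubn and Amn were not called in that comparison.

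Between AA and C, limma called 20 of 126 genes tested from the 7 lists, 15.9% of them, against 19.8% of all genes, and in M vs. C 3 of 126, or 2.38%, against 1.38%. In AA vs. M it called 8 of 123, or 6.5%, against 12.8% of all genes. The genes called in AA vs. C were outside the rule used to name genes and are named after their values were seen. In the adaptor list Dnm2, the dynamin that cuts coated vesicles (−1.59), Ap2s1 (−1.01) and Slc9a3 (−2.68) were called lower and Clta, a clathrin light chain (1.35), higher. Lower as well were Appl2 (−1.41) and Rab11fip3 (−1.43) of 25 endosome genes, and Atp6v0a1 (−1.61), Atp6v0b (−2.58), Clcn6 (−1.16) and Clcn7 (−1.80) of 20 acidification genes. Among 12 lysosomal genes Lamp2 (1.26), Npc2 (1.12) and Scarb2 (1.08) were called higher and Mcoln1 (−1.23) and Tfeb (−1.24) lower. Slc22a17, a receptor for lipocalin (−1.66), and the factor Esrra (−2.41) were lower, and the ligand genes Gc, the vitamin D binding protein (1.27), and Hpx (1.06) higher. Each had a limma adjusted p of at most 0.0327. Against M mice 4 and 5 alone, limma called 12 of 123 genes of these lists, or 9.76%, near the 8.66% of all genes. All were lower across AA kidneys: 1 of 24 in the adaptor list (Slc9a3, −1.30), 1 of 25 endosome genes, 4 of 20 acidification genes (Atp6v0b, −2.45, with Atp6v0a1, Clcn6 and Clcn7), 3 of 12 lysosomal genes, 2 of 19 uptake receptors and 1 of 7 transcription factors. Against M mice 1 to 3 alone most calls went the other way, with 13 of 123 higher and 1 lower. That was 11.4%, against 18.6% of all genes.

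**Figure D5:**
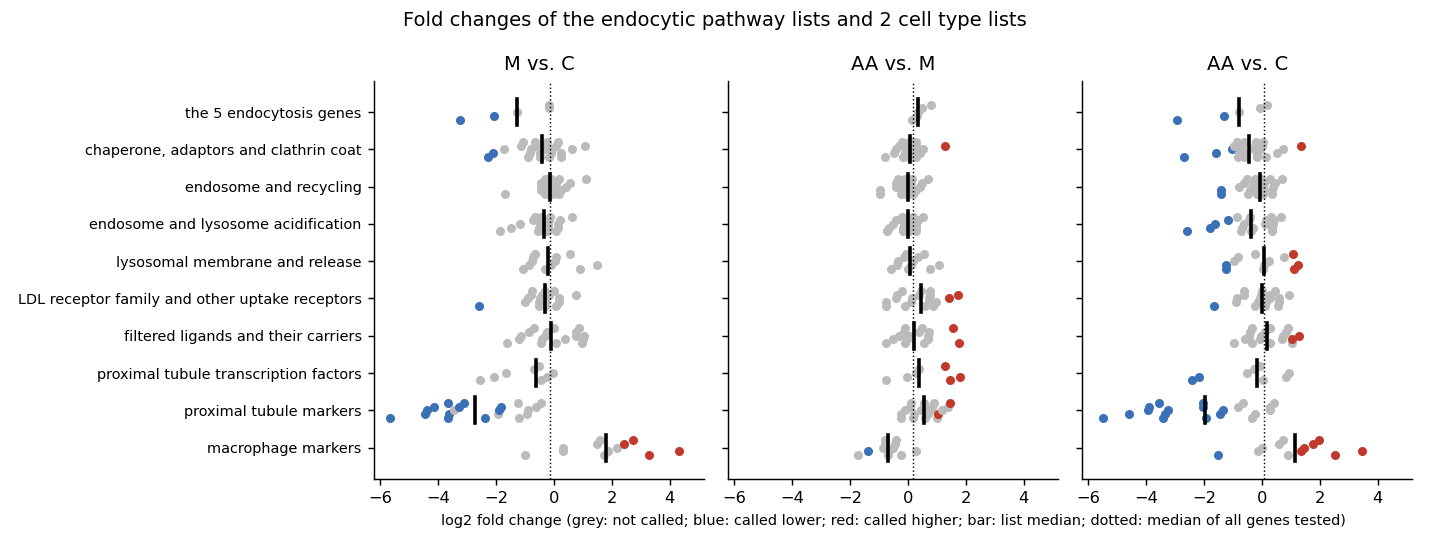
Log2 fold change on log2(FPKM + 1) of every tested gene in the 5 endocytosis genes, 7 lists of the endocytic route and its regulators, and 2 cell type lists, for the 3 comparisons. Grey points were not called, blue were called lower and red higher by limma, bars are list medians and the dotted line is the median of all genes tested. The proximal tubule markers, at a median of −2.74, lie farther left in M vs. C than any list of the endocytic route.

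Markers of other kidney cells moved in the same libraries. Macrophage markers were called higher for 4 of 12 genes in M vs. C, with a mean log2(FPKM + 1) over the list of 1.61 ± 0.67 across C kidneys, 3.38 ± 0.38 across M kidneys and 2.70 ± 0.15 across AA kidneys (SD, n = 5 each), and summed FPKM of 19.0 to 127, 173 to 486 and 122 to 185. Lyz2, Ctss and C1qb led them, with log2 fold changes of 4.32, 3.30 and 2.73, and at most 2 of the 12 were at 0 in any library. In AA vs. C 6 were called higher and Csf1r, the receptor for macrophage colony-stimulating factor, lower. With M mice 4 and 5 alone 0 were called in M vs. C, with a median of 1.79. Dab2 is also a macrophage gene, and the part of these cells in its level was not tested. Endothelial markers, the other candidate source of Dab2 RNA, had 0 of 10 called by limma in M vs. C, 2 with an unadjusted p under 0.05, and list means of 2.43 ± 0.30, 1.84 ± 0.38 and 1.81 ± 0.30 in C, M and AA. Intercalated cell markers, relevant to Clcn5, fell for 4 of 9 genes in M vs. C, and for 5 of the 9 when AA was set against C, with Slc4a9, Rhcg and Slc26a4 among them, and list means of 3.05 ± 0.70, 1.27 ± 0.51 and 1.27 ± 0.26. Of 8 thick limb and distal tubule markers 1, Slc12a3, was called lower in M vs. C, while Umod was at 30.2 and 24.7 FPKM in C and M. With M mice 4 and 5 alone 0 genes of either list were called in M vs. C. With all M libraries 1 of the 9 intercalated cell markers, Atp6v1b1, was called higher in AA vs. M (1.44, limma adjusted p = 0.0379) and 0 lower. Against M mice 4 and 5 alone, Slc4a9 (−3.03) and Rhcg (−2.72) were called lower across AA kidneys and 0 of the 9 higher. Of the 8 thick limb and distal tubule markers, 2 were also called lower there and 2 in AA vs. C, with 0 higher in both. What these cells contribute to the level of Clcn5 was not tested.

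Among the remaining lists, fibroblast and myofibroblast markers had 1 of 10 called in M vs. C, Col3a1, and 8 of 10 in AA vs. C, all higher. In AA vs. M 1 of the 10 was called higher, and 0 against M mice 4 and 5 alone. Principal cell markers had 3 of 6 called lower in M vs. C, Aqp2, Fxyd4 and Hsd11b2, and 4 of 6 in AA vs. C. With M mice 4 and 5 alone 0 fibroblast and 0 principal cell markers were called in M vs. C, with Col3a1 at 1.71 and Aqp2 at −3.96. Podocyte markers had 0 of 8 called by limma in M vs. C, 0 at an unadjusted p under 0.05, and 1, Wt1, called higher in AA vs. M, at 1.498. Wt1 was at 0.43 against M mice 4 and 5 alone (limma adjusted p = 0.486). Injured tubule markers had 1 of 9 called higher in M vs. C, Cd44, and 2 higher in AA vs. M, Havcr1 and Sox9. None of these calls held with M mice 4 and 5 alone, where Cd44 was at 1.26 in M vs. C (limma adjusted p = 0.146) and, in AA vs. M, Havcr1 at 0.99 (limma adjusted p = 0.208) and Sox9 at 0.31 (limma adjusted p = 0.571). Havcr1 was instead called higher in M vs. C there, by 2.18 (limma adjusted p = 0.0315). Havcr1, which encodes KIM-1, a receptor that injured proximal tubule cells use to take up debris, was at 0.0323, 2.25 and 9.08 FPKM in C, M and AA. The part of these shifts in cell makeup in the values of the 5 genes was not tested.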

How the data were processed

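Kidney RNA of 15 mice was sequenced as poly-A libraries in paired reads of 150 bases, 5 libraries per group. Per the labels and the submitters' processing notes, reads were trimmed with fastp, aligned to mm10 with HISAT2 2.0.5 and counted on genes with featureCounts 1.5.0-p3; the annotation is not given in the sources used here. The authors deposited FPKM for 54532 genes, of which 37 were not found in GENCODE M21. FPKM times exon length fell on whole multiples of 1 step per library for 97.3 to 99.2% of low values (tolerance 0.02, up to 12 steps), which gave the reads behind each value. The divisor this implies was 0.518 to 2.3 times the reads on genes and stayed at 19.7 to 21.4 (in units of 1e6 reads) per unit of a median-of-ratios size factor, so the deposited FPKM follow such a scaling and not the library total. Even read numbers made up 54.5 to 69.9% of values from 1 to 8, so mates may have been counted singly.

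Each comparison used limma 3.58.1 in R 4.3.3 (lmFit, eBayes with trend) on log2(FPKM + 1) of its 10 libraries, for genes above 0 in at least 5, and a second fit subtracted the mean of 20 proximal tubule markers. Nothing in the labels places same-numbered mice in 1 batch, and p-values measure the spread between single kidneys. Fits were run on simulated data drawn from the means and SDs of the C group. Those data lack libraries like M mice 1 to 3, so they do not test the M vs. C calls. Ratios were tested in Python 3.11.15 with scipy 1.17.1, and figures were drawn with matplotlib 3.10.9. Named in each list are up to 3 genes with the largest absolute change among those called in M vs. C or AA vs. M or, where fewer than 2 were called, the 2 of highest mean FPKM. The 5 genes, the 7 pathway and 9 cell type lists and the tests were chosen with earlier results of these data known. A few genes that these rules would name, and a motif, are not reported here.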

Additional observations from a re-analysis of the deposited data

Results flagged for a closer look

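Among 30 groups of 5 values tested with Dixon's ratio (limit 0.71), 3 held a value far from the rest, all of them in C mouse 2, where chance alone flags about 1 group in 20. Lrp2 was at 23.6 FPKM (ratio 0.812) and Cubn at 7.55 FPKM (ratio 0.740), each the highest of its group, and the Clcn5/Lrp2 log2 ratio was at −3.72 (ratio 0.742), the lowest. Without C mouse 2, the control means were 5.43 ± 1.54 FPKM for Lrp2, 1.91 ± 0.715 for Cubn and 17.9 ± 10.2 for Amn (SD, n = 4 each), still above all M libraries.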

How the results depend on the processing

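Replicate numbers did not pair the mice: the correlations of deviations of same-numbered mice were −0.131 to 0.217. With a replicate block, 1 of the 5 genes (Amn) and 152 of all genes were called in M vs. C, against 2 and 291. Calls in M vs. C were the least stable: 0 of the 5 were called with a pseudocount of 0.1 or 0.01, no filter, quality weights, no intensity trend or M mice 4 and 5 alone, and 1 with centred libraries or voom. Over all genes 110 were called with a pseudocount of 0.01, 33 with no filter, 448 at a mean FPKM of at least 1, 1586 with TPM, 786 with all 15 libraries in 1 fit, 188 with quality weights, 14 with M mice 4 and 5 and 3094 with M mice 1 to 3. Leaving out 1 library gave 1 to 766, with 1 without C mouse 5, 18 without M mouse 3 and 766 without M mouse 5, and 0 to 2 of the 5 genes. In AA vs. M 1 of the 5 was called with M mice 1 to 3 alone, and over all genes 316 with TPM, 4003 with voom and 745 among protein-coding genes, against 2533, and 1767 to 2841 without 1 library. In AA vs. C 1 of the 5 was called with no filter and 1 to 2 without 1 library, and over all genes 7474 with a pseudocount of 0.1, 7730 with voom and 2672 among protein-coding genes, against 4346, and 3495 to 4818 without 1 library. Cubn was called in M vs. C with TPM, with all 15 libraries in 1 fit and with M mice 1 to 3 alone, and in AA vs. C with TPM and voom.

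Signs turned in M vs. C for Dab2 (0.087 quantile, 0.19 centred) and Clcn5 (0.083 quantile, 0.18 centred). In AA vs. M they turned for Cubn (−0.017 quantile, −0.039 centred), Amn (−0.19 centred, −0.48 quality weights, −1.38 with M mice 4 and 5), Dab2 (−0.17 centred) and Clcn5 (−0.22 quantile, −0.39 centred, −0.015 with M mice 4 and 5). In AA vs. C they turned for Dab2 (−0.80 with TPM) and Clcn5 (−0.13 to 0.038 without 1 library). Relative to the proximal tubule markers, Amn in M vs. C turned to 0.55 with M mice 4 and 5, and in AA vs. M Lrp2 turned to −0.52 with the marker median, Cubn to 0.11 and Dab2 to 0.19 with M mice 4 and 5, while leaving out 1 library gave −0.17 to 0.036 for Cubn, −0.55 to 0.18 for Amn and −0.42 to 0.0098 for Dab2. With the marker median 1 of the 5, Clcn5, was called in AA vs. M. Cubn/Lrp2 no longer passed in M vs. C with a pseudocount of 0.1 (0.84) or with M mice 4 and 5 (0.68), where the M libraries are too few for any ratio to pass. In AA vs. C it no longer passed in 7 of 11 alternatives, among them a pseudocount of 0.1 (0.41) and several omissions of 1 library. Without 1 library it was 0.33 to 0.58 in AA vs. C and −0.48 to −0.16 in AA vs. M. Amn/Cubn in AA vs. M was 0.54 with a pseudocount of 0.1 and −0.46 to 0.31 without 1 library. With M mice 4 and 5 the M vs. C differences were −0.60 for Amn/Cubn, 1.57 for Dab2/Lrp2 and 1.59 for Clcn5/Lrp2, where the number of libraries sets the smallest p. Amn in AA vs. C stayed called in 25 of 25 alternatives. The cause of the other changes was not tested. Few reads limit Amn in the AA group and Clcn5 in all groups.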
